A study of Mus musculus with 248 samples.

Results

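Nucleolar ribosome biogenesis genes are 35 genes whose products copy, cut, modify and assemble ribosomal RNA. They were chosen by symbol, and a gene counted as a member when its Ensembl identifier was a row of the deposited tables. All 35 were present in both tables, of 18508 genes in the training table, 13607 in the validation table and 13232 in both. By role, 5 act in transcription by RNA polymerase I, 4 belong to box C/D snoRNPs and the U3 particle, 5 to box H/ACA snoRNPs and their chaperone, 8 to processing of the small subunit, 8 to assembly of the large subunit, and 5 are abundant nucleolar proteins or regulators.

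The values came from bulk RNA sequencing of peripheral blood, labelled PBMC, from 35 C57BL/6 mice in 248 libraries, 1 library per mouse and time. CM mice carried the conditional Cbfb-MYH11 knock-in allele Cbfb+/56M together with Mx1-Cre, a Cre recombinase under an interferon-inducible promoter that is active in blood-forming cells and in other tissues. Littermate controls (Ctrl) lacked 1 or both transgenes, and every mouse of both arms received 7 doses of poly(I:C) at 14 mg/kg from an age of 4 to 8 weeks, after the T0 sample. The training cohort held 7 CM mice (genotype label CHW, 55 libraries) and 7 Ctrl mice (4 CW, 2 HW and 1 WT, 77 libraries) sampled at T0 and then monthly up to T10 or until leukemia. The validation cohort held 13 CM mice (CHW, 68 libraries) and 8 Ctrl mice (4 CW, 2 HW and 2 WT, 48 libraries), sampled at T0 to T6, at leukemia (L) or in weeks. Leukemia was defined in the labels by more than 20% cKit+ blasts. The genotype letters are not spelled out in the labels. All values below are log2 CPM, the log2 of a gene's reads scaled to a fixed library total, and a difference of 1 is a doubling. In bulk blood, fewer cells of a type and less RNA per cell cannot be told apart.

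Ribosomes are built in the nucleolus. RNA polymerase I copies ribosomal DNA into a long precursor, snoRNPs guided by small nucleolar RNAs methylate it or turn uridine into pseudouridine, and large processing complexes cut it while ribosomal proteins are added. Dividing cells make many ribosomes, the transcription factor MYC is a known activator of these genes, and Npm1, which encodes nucleophosmin, is among the genes most often mutated in human acute myeloid leukemia.

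Reads summed over the genes kept in each table came to 16 to 36.3 M per training library and 8.68 to 34.4 M per validation library. The 2 tables keep different sets of genes. Training libraries were made with RiboErase, and samples of each time were spread over several of the library groups named in the titles. The arms were not spread evenly over these groups. At T4 no group held both arms, so arm and group cannot be told apart there, and at T3 and T6 the arms hardly shared a group. In the validation cohort each monthly time and L was taken as a run of its own, and the weekly libraries as run I. The titles of these libraries name no run. By the numbers that end the titles, the leukemia library of mouse 2684 lies among the T5 libraries, apart from the other leukemia libraries. T0, T1 and L (38 libraries) were unstranded and from runs B, C and A, and the other 78 libraries were stranded. Leukemia against T0 and run A against run B therefore cannot be told apart there. Some libraries sat apart from their labels. The Ctrl mouse 3342 had a Kit level of 4.95 at T1, against 1.07 to 2.09 in the other Ctrl mice, and a median member level of 4.70, against 4.98 to 5.47. With or without it, 0 members were called at T1 in either training comparison that uses that library, so this count cannot show its weight. The members' median difference between Ctrl T1 and T0 was -0.02 without mouse 3342. It was -0.16 to -0.09 in fits that each left out another mouse. The validation CM mouse 2700 had 0 to 19 reads of the row named MHY11 over 7 libraries. Validation CHW libraries had a median of 240.5 and Ctrl mice labelled HW 53 to 288. This row had 8 to 321 reads in validation CM libraries at T0 too, before poly(I:C), so it does not count the induced fusion alone. In training CM libraries it had 0 to 5 reads at T0 and 0 to 19 later. Xist was on the side of the other sex in 5 validation libraries (T0, T2 and L of mouse 2731 and T0 of mice 2705 and 2718), and results with mice 2705, 2718 and 2731 left out are given where they rest on them. Markers of several blood cell types were present in libraries labelled PBMC. Adult globin genes took from 0.473 to 1.78% of reads in the training Ctrl T0 libraries and 4.22 to 38.5% at T10, and mature neutrophil genes were detected in every group.

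Between genes, levels were compared per exon length, as CPM per kilobase of exon over the 14 training T0 libraries (mean ± SD). Ncl (39.7 ± 7.38), Tcof1 (39.3 ± 3.85), Ddx21 (34 ± 4.20) and Ubtf (31.1 ± 2.60) were highest, and neighbours in that order did not differ beyond their spread. Fbl was lowest at 3.78 ± 0.582, below Bysl at 5.08 ± 0.329 and Gar1 at 5.36 ± 0.864. Every member had reads in every library, but Fbl was down to 2 reads in its lowest one. Fbl has 1 named pseudogene, so its reads may be split. Because counting by strand was not stated, Nhp2 (which overlaps Rmnd5b), Gnl3 (Glt8d1), Nop56 (Idh3b), Wdr12 (Carf), Bop1 (Mroh1 and Scx), Dkc1 (Mpp1), Nat10 (Caprin1), Mybbp1a (Spns2), Ebna1bp2 (Cfap57) and Bysl (Ccnd3) share bases with a neighbour and are uncertain to that extent. Within Ncl, Nop58, Nop56, Gnl3, Dkc1 and Wdr43 lie annotated snoRNA genes.

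At leukemia in the validation cohort, most nucleolar ribosome biogenesis genes rose above the level the same mouse had at T0. In 6 mice, 22 of the 35 members rose and 1, Tcof1, fell, by limma with the mouse as block and an adjusted p under 0.05. Over all genes 31.4% were called higher and 33% lower. The median difference of the members was 0.62, against -0.04 over all genes. Of the 22, 20 were higher in 6 of 6 mice and 17 had leukemia libraries that did not overlap the T0 libraries. Over all genes tested, 27.2% were called higher with 6 of 6 mice higher, and 22.8% were called higher without overlap. Together the members took 0.198 to 0.239% of the reads at T0 and 0.276 to 0.382% at leukemia, ranges that did not overlap. Without mice 2718 and 2731 the counts were again 22 and 1.

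Members of box H/ACA snoRNPs, which turn uridine into pseudouridine in ribosomal RNA, rose in 5 of 5 cases, with a median difference of 0.79. Gar1, a core protein of these particles on chromosome 3 (129824912 to 129831407, GRCm38.p6), lay at 1.54, 1.74 and 2.25 (lowest, median and highest of 6 mice) at T0 and at 2.94, 3.22 and 4.00 at leukemia. Every leukemia library was above every T0 library. The difference was 1.47 (SE 0.20, adjusted p = 0.000304), a 2.78-fold rise and the largest among the members. Nhp2, another core protein, on chromosome 11 (51619773 to 51623718), went from 4.06, 4.26 and 4.38 to 4.84, 5.64 and 5.98, again without overlap, a difference of 1.34 (SE 0.16, adjusted p = 0.000164). Dkc1, the pseudouridine synthase on the X chromosome, rose by 0.70 (SE 0.16, adjusted p = 0.00526) from a mean of 5.73 ± 0.11 to 6.42 ± 0.39 (SD, n = 6), with overlapping groups. Nolc1, a chaperone of snoRNPs, and Nop10, the smallest core protein, rose by 0.79 and 0.62.

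Box C/D snoRNPs methylate ribosomal RNA, and 3 of their 4 members rose, with a median of 0.98. Nop58, a core protein on chromosome 1 (59684961 to 59711510), lay at 5.87, 6.08 and 6.28 at T0 and at 7.03, 7.11 and 7.61 at leukemia. The difference was 1.17 (SE 0.10, adjusted p = 3.09e-05), 2.25-fold, with no overlap. Fbl, the methyltransferase fibrillarin, rose by 1.01 (SE 0.22, adjusted p = 0.00415) from 1.80 ± 0.09 to 2.82 ± 0.35, at the lowest read counts among the members. Rrp9, a protein of the U3 particle, rose by 0.95 (SE 0.14). Nop56, the partner of Nop58 in the same particle, did not pass: it lay at 6.01 to 6.39 at T0 and spread over 5.04 to 6.89 at leukemia, a difference of -0.15 (SE 0.21, adjusted p = 0.538). Without mouse 2718 its difference was 0.04.

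Among the abundant proteins and regulators 4 of 5 rose, with a median of 0.84. Gnl3, which encodes the GTP-binding protein nucleostemin, on chromosome 14 (31012433 to 31019131), went from 4.93, 5.04 and 5.22 at T0 to 6.01, 6.31 and 6.60. The difference of 1.28 (SE 0.11, adjusted p = 3.32e-05) was a 2.43-fold rise without overlap. Npm1, a histone and ribosome chaperone, went from 7.22, 7.27 and 7.43 to 8.07, 8.35 and 8.57, a 2.04-fold rise (1.03, SE 0.10, adjusted p = 6e-05). All 6 leukemia libraries were above all 6 T0 libraries for Npm1 too. The RNA helicase gene Ddx21 rose by 0.84 (SE 0.11). Ncl, which encodes nucleolin, rose by 0.71 (SE 0.16, adjusted p = 0.00461) and overlapped, with 7.29 to 7.72 at T0 and 7.56 to 8.97 at leukemia. Mybbp1a did not pass, at 0.33 (SE 0.20, adjusted p = 0.17), and was higher in 3 of 6 mice.

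The 2 processing groups were split. Of 8 large subunit members 5 rose (median 0.58): Ebna1bp2 by 0.80, Pes1 by 0.77, Nop2 by 0.73, Rrs1 by 0.59 and Nop16 by 0.57. Pes1, on chromosome 11, went from 5.37, 5.58 and 5.69 to 6.04, 6.36 and 6.48 (SE 0.11, adjusted p = 0.00051) without overlap. Its partners Bop1 and Wdr12, with which it forms the PeBoW complex, were at -0.09 (SE 0.19, adjusted p = 0.701) and -0.24 (SE 0.17, adjusted p = 0.247), so the subunits of 1 complex had different values. Nip7 was at 0.31 with an adjusted p of 0.0502. Nop16 was the least firm of the called members (adjusted p = 0.0359) and stayed called in 1 of 6 fits that each left out a mouse. Of 8 small subunit members 4 rose (median 0.39): Nop14 by 0.71, Rrp12 by 0.69, Dcaf13 by 0.64 and Wdr43 by 0.62. Heatr1, a large scaffold protein, was at 0.04 (SE 0.12, adjusted p = 0.784), Nat10, which acetylates ribosomal RNA, at 0.05, Utp20 at 0.14 and Bysl at 0.17.

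Genes for transcription of ribosomal DNA had the lowest median of the 6 roles, 0.24, and 1 of 5 rose and 1 fell. Rrn3, the factor that brings RNA polymerase I to the promoter, rose by 0.62 (SE 0.11, adjusted p = 0.00132), from 5.79 to 6.22 at T0 to 6.36 to 6.80 at leukemia without overlap. The polymerase subunit genes Polr1a and Polr1b were at 0.16 (SE 0.20, adjusted p = 0.503) and 0.24 (SE 0.17, adjusted p = 0.253), and Ubtf, the upstream binding factor, at 0.26 (SE 0.11, adjusted p = 0.07). Tcof1, whose product treacle joins ribosomal DNA transcription with rRNA modification, fell in 6 of 6 mice. It lay at 6.39, 7.00 and 7.25 at T0 and at 5.05, 5.51 and 6.14 at leukemia, with no overlap. The difference was -1.33 (SE 0.19, adjusted p = 0.000432), which made T0 2.51-fold higher. Fits that each left out a mouse called Tcof1 lower in 6 of 6 cases.

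**Figure D1:**
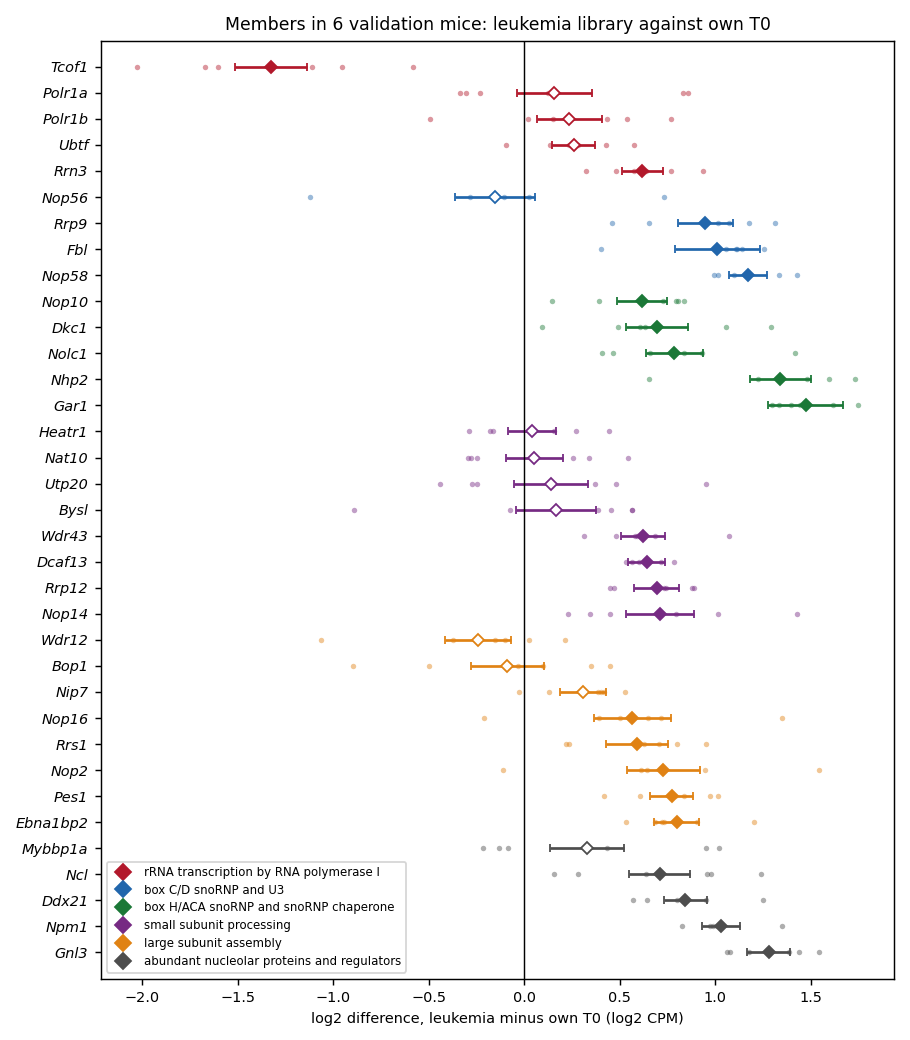
Log2 difference between the leukemia library and the T0 library of the same mouse for the 35 members, by role. Dots are the 6 mice, diamonds the limma estimate with its standard error, filled where the adjusted p was under 0.05; Gar1 is furthest right at 1.47 and Tcof1 furthest left at -1.33.

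The other genes of the pathway moved less evenly. Of the other ribosome biogenesis genes, 63 rose, 5 fell and 54 were not called (median 0.33), with Naf1, an assembly factor of H/ACA particles, at 1.49 (SE 0.23), Rcl1 at 1.31 (SE 0.13) and Gnl3l, a relative of Gnl3, at 1.29 (SE 0.10). Of 76 ribosomal protein genes, 10 rose and 33 fell (median -0.42), with Rps27 at -2.54 and Rps13 at -2.24. Rps13 was low at both times, with means of 2.25 and 0.01. The summed level of the 76 genes was not lower at leukemia. It had a median of 15233 CPM at T0 (14217 to 17600) and of 16869 CPM at leukemia (11877 to 19893), and the ranges overlapped. These short genes have many processed copies in the genome, so their reads are uncertain. Of 9 genes of MYC and its partner network, Myc rose, from 4.08 ± 0.23 to 5.44 ± 0.90 (1.36, SE 0.34, adjusted p = 0.00735), and Mxd1, which encodes an antagonist of MYC, fell (-1.45, SE 0.23). In these libraries 10 of 10 proliferation genes, 7 of 10 stem and progenitor genes and 5 of 7 basophil and mast cell genes also rose. In turn 9 of 10 T cell, 10 of 10 B cell, 8 of 8 NK cell, 6 of 10 neutrophil, 5 of 8 monocyte and 6 of 8 platelet genes fell. The summed level of the proliferation genes went from 186 to 217 CPM at T0 to 305 to 2930 CPM at leukemia, that of the progenitor genes from 42.6 to 72 to 1105 to 3734 CPM, and that of the B cell genes from 2855 to 5103 down to 70.1 to 371 CPM, and none of these markers was at 0 in all libraries of a group. The part of cell composition in the members' differences was not tested.

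Differences between mice were wide. In mouse 2731, 34 members were higher at leukemia, and in mouse 2718 there were 21, with medians of 0.73 and 0.46. Mki67, a gene of dividing cells, was at 9.56 in the former and at 6.56 in the latter. Mouse 2718 also had the highest Kit level of the 6, at 11.4, and mouse 2731 came next, at 10.85. Mouse 2684, with 33 members higher, had Mki67 at 10.2 and Kit at 8.22. Mice 2690 and 2719 had similar Mki67 levels, 8.53 and 8.63, but 33 and 25 members higher, with medians of 0.69 and 0.47. Mouse 2708 had 25 members higher and Mki67 at 7.74. A relation of the members to Mki67 or Kit over these mice was not tested. By Xist, T0 of mice 2718 and 2731 and the leukemia library of mouse 2731 did not match the labelled sex. The differences within these mice are uncertain to that extent.

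In the 6 validation Ctrl mice, T1 (run C) was compared with T0 (run B), and both sets of libraries were unstranded. There 13 members were higher at T1 and 1, Bysl, was lower, against 25.7% of all genes higher and 7.58% lower. The median was 0.16, against 0.11 over all genes. Time after poly(I:C) and run cannot be told apart here. Utp20 (0.47, SE 0.08), Nolc1 (0.46, SE 0.05), Bop1 (0.42, SE 0.08) and Rrp12 (0.41, SE 0.08) had the largest differences. Utp20 lay at 5.38, 6.13 and 6.36 at T0 and at 6.23, 6.58 and 6.66 at T1, and was higher in 6 of 6 mice although the groups overlapped. Bysl was at -0.25 (SE 0.08, adjusted p = 0.0444) and was called in 1 of 6 fits that each left out a mouse, the one without mouse 2705, which gave 11 higher and 1 lower. The members' differences spanned -0.25 to 0.47. Run A, which held the leukemia libraries, was not part of this comparison, so it gives no size for run A against run B. Gnl3 was at 0.05, Nop58 at -0.10, Npm1 at -0.01, Tcof1 at 0.06 and Gar1 at 0.27 (SE 0.16, adjusted p = 0.221), none of them called. The call for Nhp2 (0.37, adjusted p = 0.0171) was in the same direction as its leukemia difference. With TMM scaling, which corrects for a few genes that take many reads, all genes were at 0.00 and the counts were 9 higher and 3 lower, with 2282 higher and 1918 lower calls over all genes in place of 3501 and 1031. Without the mouse as block the counts were 6 and 0. In the training cohort the same comparison of 7 Ctrl mice called 0 members (limma, 0% of all genes), 1 had an unadjusted p under 0.05, and voom called 0.

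Promoter windows of the leading members are printed to show the bases just upstream of genes that moved together. RefSeq (GRCm38.p6) held a promoter entry of 250 bases before to 50 after the start for 28 of the 35 members. Windows of 120 bases that end just before the outermost start are given for the 4 members with the largest rise, and for Nop2 and Rrn3, called members whose window holds the E-box (CACGTG), which MYC with MAX binds. Capitals mark this E-box and, on either strand, the GC box (GGGCGG), which SP1 binds. Gar1 has neither in its window.
Gar1 (chr3:129831408-129831527, minus strand): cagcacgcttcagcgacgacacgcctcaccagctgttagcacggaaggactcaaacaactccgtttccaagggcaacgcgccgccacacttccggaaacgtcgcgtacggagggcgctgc
Nhp2 (chr11:51619653-51619772, plus strand): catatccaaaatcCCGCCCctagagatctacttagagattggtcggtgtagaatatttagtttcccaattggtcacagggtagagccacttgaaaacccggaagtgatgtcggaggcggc
Gnl3 (chr14:31019132-31019251, minus strand): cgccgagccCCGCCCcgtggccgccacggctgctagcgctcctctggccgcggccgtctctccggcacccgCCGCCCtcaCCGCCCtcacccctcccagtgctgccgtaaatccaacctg
Nop58 (chr1:59684841-59684960, plus strand): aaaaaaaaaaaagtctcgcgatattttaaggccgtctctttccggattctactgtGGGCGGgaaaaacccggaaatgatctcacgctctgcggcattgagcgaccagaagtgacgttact
Nop2 (chr6:125131763-125131882, plus strand): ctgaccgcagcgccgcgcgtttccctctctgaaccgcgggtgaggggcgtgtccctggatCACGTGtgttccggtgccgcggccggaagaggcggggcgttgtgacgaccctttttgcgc
Rrn3 (chr16:13780579-13780698, plus strand): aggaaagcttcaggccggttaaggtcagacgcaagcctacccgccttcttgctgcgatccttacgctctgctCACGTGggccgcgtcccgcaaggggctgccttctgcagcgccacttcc

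Over the whole 300-base entries, searched on both strands, CACGTG stood in 6 of 28 member genes (21.4%), against 8.1% of 27025 genes. The holders were Mybbp1a, Nop2, Pes1, Rrn3, Utp20 and Wdr43, and 4 of these rose at leukemia. The variant CACGCG stood in 10 of 28 (35.7%), against 10.5% of all genes, and 6 of its holders rose. GGGCGG stood in 20 of 28 (71.4%), against 38.2%, and TATAAA, which positions the polymerase at some starts, in 2 of 28 (7.1%), against 15.7%. Of the 28 genes 17 rose at leukemia, and of the 20 holders of GGGCGG 12 did.

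For each of the 7 training CM mice, the final sample (T4 to T10) was set against T0, and a similar order of members was found around a lower centre. Tcof1 fell, and 0 members were called higher, against 10.1% of all genes higher and 35.9% lower. The median of the members was 0.26 and that of all genes -0.57. Tcof1 lay at 7.04, 7.58 and 7.64 at T0 and at 4.98, 6.45 and 7.01 in the last libraries. It was lower in 7 of 7 mice without overlap (-1.09, SE 0.28, adjusted p = 0.00758), and T0 was 2.13-fold higher. Nhp2 lay at 3.67, 3.94 and 4.26 at T0 and at 1.91, 5.63 and 5.76 in the last libraries, with a difference of 1.0 (SE 0.46, adjusted p = 0.0972). Rrp9 was at 0.92 (SE 0.46, adjusted p = 0.126), Gnl3 at 0.86 (SE 0.40, adjusted p = 0.0987) and Gar1 at 0.70 (SE 0.44, adjusted p = 0.218), each higher in 6 of 7 mice.

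The mouse that lay apart was 3368, whose last library was from T10. There 35 of 35 members were below T0 (median -2.15), Kit was at 2.34 while the other 6 mice had 6.61 to 9.45, and globin genes took 21.7% of the reads. Without mouse 3368, 20 members were called higher and 1 lower, with 19.4% of all genes called higher. In mouse 3357, 16 members were higher and 19 lower, and its globin share was 10.9%. In the other 5 mice 27 to 33 members were higher, with medians of 0.39 to 1.22. Scaling also changed the count. With TMM the median of all genes moved from -0.57 to -0.04, 23 members were called higher and 1 lower, and 24.2% of all genes were called higher (4487 higher and 4845 lower over all genes, in place of 1869 and 6639). Voom on the recovered reads called 24 higher and 1 lower, and its share over all genes is not given here. The members' median was above that of all genes with either scaling (0.26 and 0.80), while the count of calls depended on the scaling and on mouse 3368.

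By role, the medians in the training comparison were 0.55 for box C/D, 0.37 for box H/ACA, 0.36 for large subunit, 0.32 for abundant proteins, -0.08 for small subunit and -0.20 for RNA polymerase I members. Npm1 was at 0.46 (SE 0.42, adjusted p = 0.396), Fbl at 0.48 (SE 0.49), Dkc1 at 0.37 (SE 0.35), Pes1 at 0.34 (SE 0.40), Ncl at 0.23 (SE 0.35) and Polr1b at 0.09 (SE 0.37), none of them called. Heatr1 (-0.59, SE 0.31, adjusted p = 0.136), Wdr12 (-0.57, SE 0.37), Polr1a (-0.43, SE 0.36) and Nop56 (-0.40, SE 0.38) had the lowest values after Tcof1, and none of them was called. Among the other ribosome biogenesis genes, 2 rose (Rcl1, 1.09, and Shq1, an H/ACA assembly factor, 1.08) and 2 fell, Mdn1, a large ATPase of 60S maturation, by 0.95 on the log2 scale. Of 78 ribosomal protein genes 12 fell and 0 rose by limma, with Rps13 at -2.45 and Rps27 at -2.35. Their summed level had a median of 9271 CPM at T0 (5981 to 10695). In the last libraries it was 13219 CPM (2923 to 16863). Of 10 genes of the MYC network, 3 rose, Myc among them (1.58, SE 0.48, adjusted p = 0.018; 5.36 ± 0.38 to 6.94 ± 1.66), and 3 fell. Proliferation genes rose in 9 of 10 cases, and summed to 113.2 to 2440 CPM against 83.2 to 150 CPM at T0. Progenitor genes (6 of 10 higher) summed to 89.2 to 1820 CPM against 74.6 to 97.9 CPM, while 10 of 10 B cell, 9 of 10 T cell and 8 of 8 NK cell genes fell. The part of these shifts in the members' differences was not tested.

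Across the 35 members the differences in the 2 cohorts had a Pearson correlation of 0.862 and a Spearman correlation of 0.805, given as a description over genes, which are not independent replicates and share their libraries. Of the 22 members called higher in the validation cohort, 19 had a difference above 0 in the training cohort, and of the other 13, 4 did. With TMM scaling 23 members were called higher in each cohort and 20 were in both lists, 87% of each. The cohorts share no mouse and were prepared with different kits. The same correlations and overlaps were not computed over all genes, so they are not shown to be particular to the members.

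**Figure D2:**
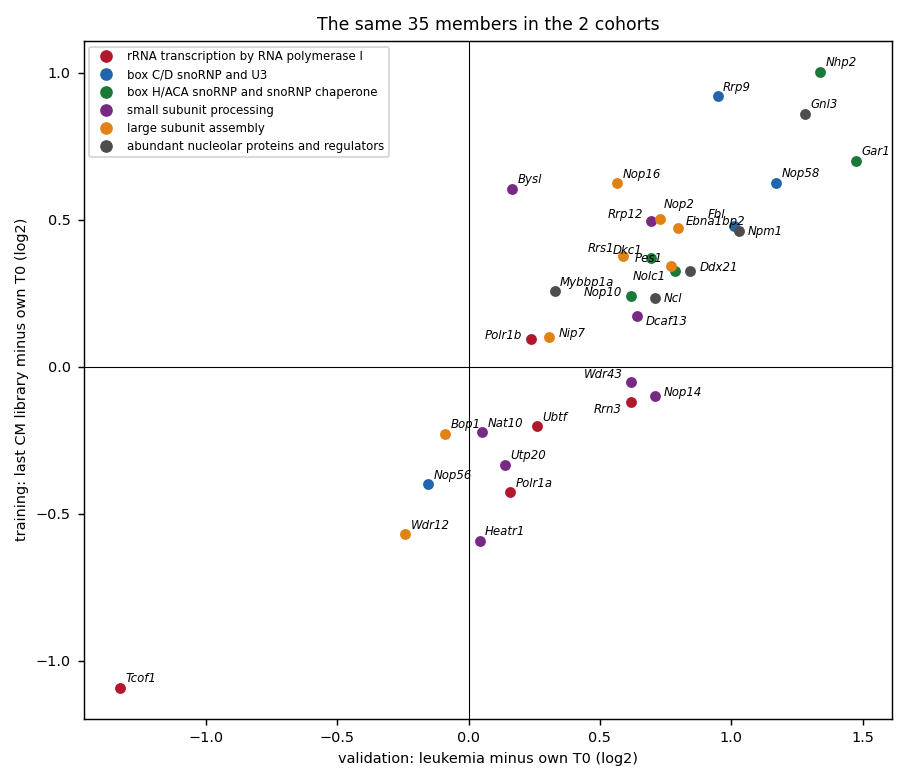
Log2 difference of each of the 35 members in the validation cohort (leukemia minus own T0, 6 mice, x axis) and in the training cohort (last CM library minus own T0, 7 mice, y axis), coloured by role. Points rise from Tcof1 at the lower left (-1.33, -1.09) to Nhp2 (1.34, 1.0) and Gar1 (1.47, 0.70) at the right.

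Within the set, members with a short exon length lay higher than members with a long one. Exon length here is the union of all annotated exons of a gene, which can exceed the length of its transcripts. The Spearman correlation of exon length with the difference was -0.55 in the validation and -0.60 in the training cohort over 35 members, a description without a test. Over all genes with a length it was 0.034 (12612 genes) and 0.03 (16266 genes). In validation Ctrl mice at T1 against T0 it was 0.176 over the members and 0.048 over all genes with a length, and in training Ctrl mice at T10 against T0 it was -0.22 and 0.1. The 10 shortest members (1109 to 2587 bases of exon) had a median of 0.83 at validation leukemia and 9 of them rose. The 10 longest (4742 to 8831 bases) had a median of 0.20 and 2 rose, Ncl and Ddx21. In the training cohort the same medians were 0.55 and -0.21. Roles and lengths overlap: the H/ACA genes Nop10 and Nhp2 have the shortest exon lengths, and Utp20, Ubtf, Heatr1 and both polymerase subunit genes have long ones. RNA quality and 3' bias were not measured in these files, and their part was not tested.

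**Figure D3:**
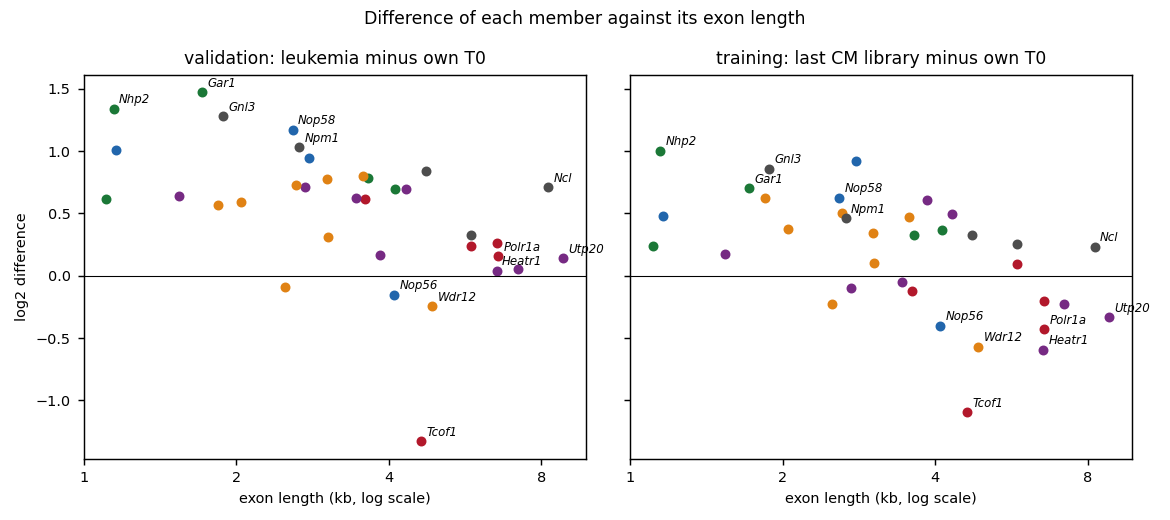
Log2 difference of each member against its exon length in kilobases (log axis) for validation leukemia (left) and the last training CM libraries (right), coloured by role. Short members such as Nhp2 and Gar1 lie at the top and Tcof1 is below all others in both panels.

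In control blood the members fell late in the follow-up. At T10, 35 of 35 members were below the T0 level of the same 7 mice by limma, with a median of -2.13. This was near the rest of the transcriptome, of which 72.7% was called lower, with a median of -1.81. The differences ran from -2.66 (SE 0.46) for Polr1a to -1.56 (SE 0.26) for Dkc1, 31 members were lower in 7 of 7 mice, and 24 had groups without overlap, against 57.8 and 38.8% of all genes that were called lower in the same way. Npm1 lay at 5.84, 6.07 and 6.20 at T0 and at 3.03, 3.70 and 5.64 at T10, below T0 in all 7 mice. Its difference was -2.07 (SE 0.32, adjusted p = 0.00129). Mybbp1a was at -2.51 (SE 0.41), Utp20 at -2.45 (SE 0.39) and Nop56 at -2.42 (SE 0.42), the largest after Polr1a. The other ribosome biogenesis genes measured, with 0 not called, and 78 of 78 ribosomal protein genes were lower too, and Myc was at -2.07 (SE 0.33).

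The globin share of reads moved with this fall, from a median of 1.02% at T0 to 31.2% at T10, and 8 of 8 erythroid and 8 of 8 platelet genes rose, while 10 of 10 B cell and 9 of 10 T cell genes fell. The summed level of the platelet genes was 987 to 3569 CPM at T0 and 5375 to 14205 CPM at T10, and that of the B cell genes 5056 to 5700 and 354 to 5570 CPM. With globin reads taken out of the library total, 35 members were still called lower, with a median of -1.70. With TMM the median of all genes was -0.30, that of the members -0.57, and 26 were called lower, against 28.3% of all genes (4113 higher and 5242 lower in place of 1936 and 13453). Dkc1 was then at 0.00. Voom called 21 lower, and its share over all genes is not given here. The fall was not a steady slope. From T5 to T6 all 35 members fell in 6 mice and 34 in mouse 3339. From T6 to T7 they were higher by 35 of 35 in 6 mice and by 22 in mouse 3339, where 13 were lower, and from T7 to T8 lower by 35 of 35 in 7 mice. The median level of the members over the 7 Ctrl mice was 5.08 at T5, 3.15 at T6, 4.91 at T7 and 2.84 at T8. Globin shares at these times had medians of 3.56, 29.9, 7.28 and 39.1%, so by their medians the low months were the globin-rich ones. This did not hold for every library. At T8 the shares ran from 7.54 to 49.8%, while the highest member level was 3.33. At T7 the shares ran from 6.02 to 18.2%, with member levels of 4.08 to 5.10. The part of the globin reads beyond their share of the total was not tested.

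**Figure D4:**
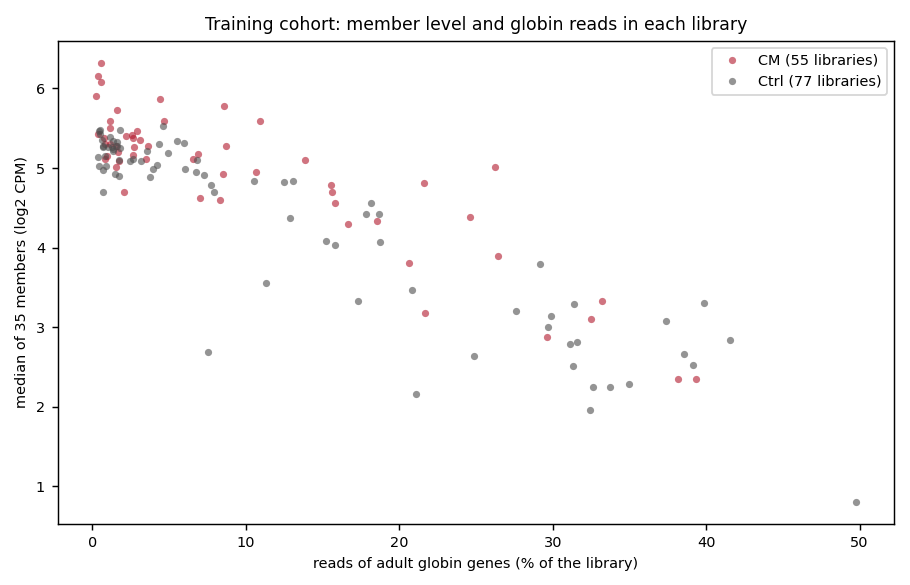
Median log2 CPM of the 35 members in each training library against the percentage of its reads from adult globin genes, in CM (red, 55 libraries) and Ctrl (grey, 77 libraries). Libraries above 20% globin reads lie mostly below a level of 4.

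The 2 arms of the training cohort were then compared by their changes from T0, using the same libraries as both comparisons above. The change from T0 to the last CM library was above the change from T0 to Ctrl T10 for 34 of 35 members, with a median of 2.35 against 0.95 over all genes, of which 33.7% were called higher. Nhp2 changed by -2.12, 1.69 and 2.09 (lowest, median and highest) in the 7 CM mice and by -3.04, -2.36 and 0.09 in the 7 Ctrl mice. These ranges overlapped, and the difference of the changes was 2.98 (SE 0.67, adjusted p = 0.00653). Rrp9 was at 2.94 (SE 0.67), Mybbp1a at 2.77 (SE 0.63) and Gnl3 at 2.70 (SE 0.59). Wdr12 was not called (1.44, SE 0.59, adjusted p = 0.0613), and Tcof1 passed narrowly (1.36, SE 0.53, adjusted p = 0.0499). This result rests on the control month. With Ctrl T6 in place of T10, 33 members were higher, with T7 2 and with T5 0 (1 was lower), against 29.5, 8.42 and 7.68% of all genes. With TMM 30 were higher, and the median of all genes moved from 0.95 to -0.01 (3132 higher and 2400 lower over all genes, in place of 6240 and 911). Fits that each left out a mouse gave 24 to 35 members, the lowest without Ctrl mouse 3349.

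Month by month, the arms were compared with sex as a covariate. These months include the last libraries of CM mice 3338 and 3357 at T4 and of mouse 3341 at T6, with Kit levels of 9.45, 6.61 and 8.07, and validation CM libraries reached a Kit level of 9.02 at T2 and 10.2 at T3. In the training cohort 0 members were called at T0 to T6. Over all genes the shares called were 0.00540, 5.02, 11.7, 0.632, 0.00540, 0 and 0.0162% from T0 to T6, and the counts of members at an unadjusted p under 0.05 were 0, 1, 3, 1, 0, 0 and 0. Voom called 2 members at T2 and 0 at the other months. Shares of all genes called by voom or TMM in these months are not given. The members' medians were -0.05, -0.19, -0.02, -0.04, 0.18, 0.00 and 0.84 from T0 to T6. Fits that each left out a mouse gave medians of -0.28 (without Ctrl mouse 3350) to 0.58 (without CM mouse 3334) at T4 and of 0.33 (without CM mouse 3334) to 1.33 at T6. Arm and library group cannot be told apart at T4, where no group held both arms, and hardly so at T3 and T6. At T2, Bop1 (-0.27, SE 0.11, adjusted p = 0.141) and Tcof1 (-0.30, SE 0.13, adjusted p = 0.148) had the smallest p, and TMM called 2 members higher. At T6, 5 CM mice against 7 Ctrl mice gave positive differences for 35 of 35 members, and for 29 without mouse 3334. Nhp2 was at 1.35 (SE 0.75, adjusted p = 0.603) and Rrp9 at 1.51 (SE 0.80, adjusted p = 0.588), and the spread was wide, since the median level of the members ran from 2.35 to 6.32 among CM and from 2.24 to 4.70 among Ctrl mice. In 1 fit over T0 to T6 with the mouse as block, which pools the spread over months, 21 members were called higher at T6, against 16.1% of all genes, and 14 with the library group as a further term.

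In the validation cohort 4 members were lower in 10 CM than in 6 Ctrl mice at T1, against 20.6% of all genes lower. These were Tcof1 (-0.42, SE 0.10, adjusted p = 0.00955), Utp20 (-0.25, SE 0.08, adjusted p = 0.029), Polr1a (-0.19, SE 0.05, adjusted p = 0.0204) and Bop1 (-0.18, SE 0.07, adjusted p = 0.0473). Tcof1 lay at 6.48, 6.66 and 7.14 in CM and at 6.71, 7.22 and 7.36 in Ctrl mice, so the groups overlapped. Tcof1 differed by -0.36 at T1 in the training cohort too (SE 0.19, adjusted p = 0.276), and by -0.32 at T3 (SE 0.13, adjusted p = 0.258). In the validation cohort it was at -0.48 at T3 (SE 0.23, adjusted p = 0.298), and none of these 3 differences passed. The call at T1 was not firm: TMM, voom and leaving out globin reads each called 1 member, and differences from the own T0 library called 0. Leaving out 1 mouse gave 1 (Ctrl 2683, 2689 or 2692) to 7 (Ctrl 2705) members, with 2 without Ctrl 2702 or 2720, leaving out mice 2705, 2718 and 2731 gave 6, and leaving out CM mouse 2700 gave 5. At the other months the shares of all genes called were 0% at T0, 0.147% at T2 and 0% at T3 to T6, and 0 members were called by limma or voom. At an unadjusted p under 0.05 there were 0 members at T0, 1 at T2, 4 at T3, 3 at T4, 6 at T5 and 1 at T6. Medians were 0.02 at T0, 0.23 at T2, 0.20 at T3, 0.31 at T4, 0.15 at T5 and -0.11 at T6. Npm1 was at 0.29 (SE 0.11, adjusted p = 0.298) at T3 and at 0.34 (SE 0.16, adjusted p = 0.772) at T4. Nop58 was at 0.40 (SE 0.19, adjusted p = 0.493) at T2 and at 0.34 (SE 0.14, adjusted p = 0.573) at T5.

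**Figure D5:**
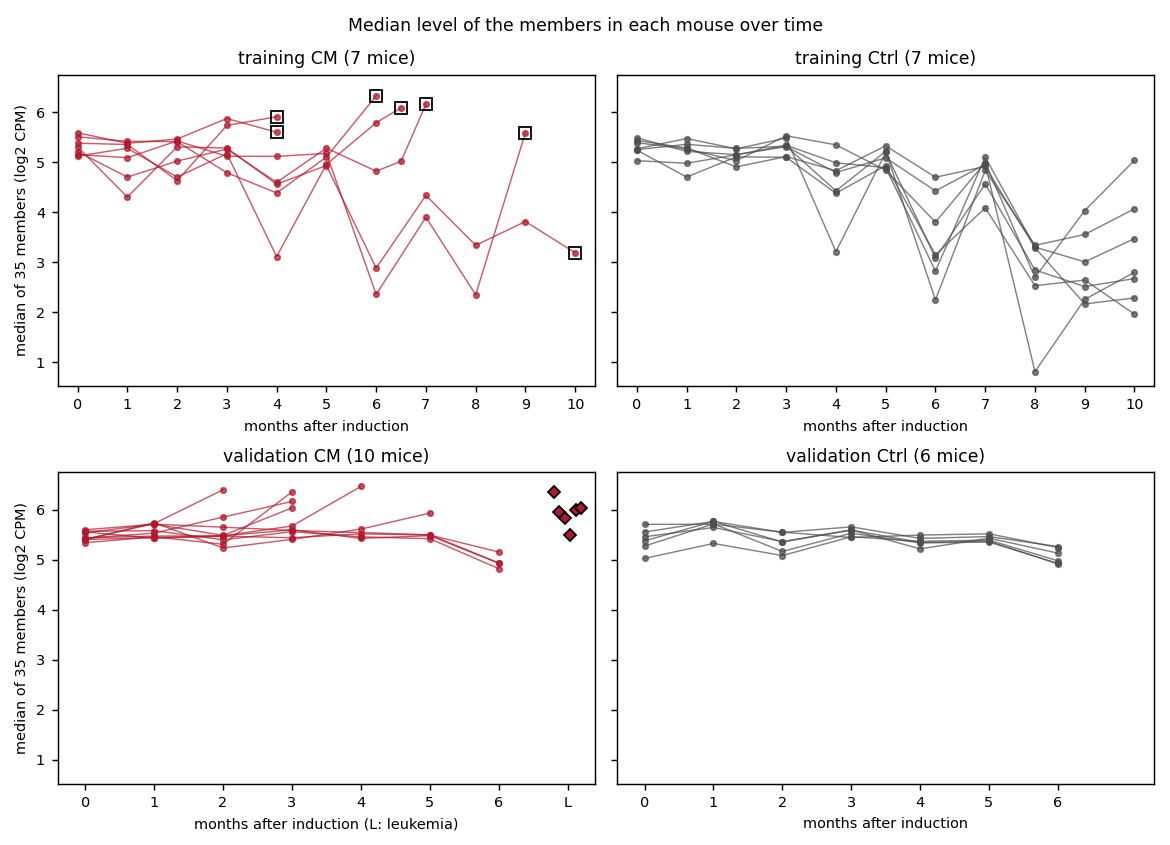
Median log2 CPM of the 35 members in each mouse by month after induction, by cohort and arm; squares mark the last library of each training CM mouse and diamonds the 6 validation leukemia libraries. The training Ctrl mice drop at T6 and T8, while most last CM libraries lie between 5.59 and 6.32.

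High values in CM mice came from single mice at different months. Mouse 2731 had a median member level of 6.40 at T2, mice 2690, 2708 and 2719 had 6.36, 6.17 and 6.04 at T3, and mouse 2684 had 6.47 at T4, all above the leukemia library of the same mouse, which was unstranded and from another run. All of these were among the 6 mice with a leukemia library. The other CM mice with monthly libraries (2685, 2686, 2700 and 2709) stayed between 4.82 and 5.71 up to T6. In the weekly libraries, which have 1 sample per mouse and week and no test, the CM mouse 3131 went from 4.88 in week 20 to 6.42 in week 24 and 6.32 in week 28. CM mouse 3200 had 5.74, 6.09 and 5.95 in weeks 10, 14 and 18, and mouse 3130 had 5.66, 5.98 and 5.57 in weeks 20, 24 and 25. The Ctrl mouse 3127 had 5.88, 5.69 and 5.41 in weeks 20, 24 and 28, and the Ctrl mouse 3202 had 5.52, 5.66 and 5.56 in weeks 10, 14 and 18. In week 20 the library of mouse 3131 had 23.3% globin reads.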

How the data were processed

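Bulk RNA of peripheral blood was sequenced from 35 mice (248 libraries). Reads were aligned with STAR and counted with Subread featureCounts on GRCm38, and edgeR was used for the training cohort, per the submitters' processing notes; their versions could not be taken from the sources. The deposited values are log2 CPM, which the authors computed with a prior of 0.25 reads and no composition factor, as rebuilding the values showed: whole reads were recovered for 100% of values (tolerance 0.01 reads). Rows were kept at 0.5 CPM (training) or 5 CPM (validation) in 2 samples, per the names of the deposited tables. Library totals over the kept rows, of 16 to 36.3 M and 8.68 to 34.4 M reads, set the precision. The 2 cohorts were tested separately.

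Each comparison was fitted on the whole table with limma 3.58.1 (R 4.3.3), with an intensity trend, a two-sided moderated test and Benjamini-Hochberg adjustment over all genes, and a gene was called at an adjusted p under 0.05. Comparisons of arms within a month had sex as a covariate. Comparisons with the own T0 library had the mouse as block, since the labels give the same animal. Libraries of 1 mouse correlated within the group means at 0.020 (training) and 0.175 (validation). Replicates are separate mice. Alternatives were TMM scaling, globin reads left out of the total, a prior of 2 reads, a filter on a mean log2 CPM above 1, other blocks, each mouse left out, and, chosen after seeing the data, voom on the recovered reads and the mice with doubtful labels left out. The fits were tested on simulated data. Tables and figures were made with Python 3.11.15, numpy 2.4.6, pandas 2.3.3, scipy 1.17.1 and matplotlib 3.10.9. Exon lengths came from another gene annotation (GENCODE, build NCBIM37, lengths only), and coordinates and promoters from RefSeq GRCm38.p6.

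Members and gene lists were chosen with earlier results of these data known. Named with values were up to 4 called members with the largest difference per comparison, otherwise up to 2 with the smallest adjusted p, together with Npm1, Ncl, Fbl, Nop56, Dkc1, Polr1b, Heatr1 and Pes1, up to 3 called genes per pathway list, Myc, Kit and Mki67. Other members named were chosen after their values were seen. One ribosomal protein gene that this rule names is not reported here.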

Additional observations from a re-analysis of the deposited data

Results flagged for a closer look

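In 5 groups of 4 to 10 mice the median member level of 1 library lay far from the others of its group, a gap that chance gives in about 1 of 20 groups. More groups than these 5 were screened, so some flags would arise by chance alone. In the training Ctrl mice at T8, mouse 3349 was at 0.81, and the nearest of the other 6 mice was at 2.53. Among validation CM mice, 2731 was at 6.402 at T2 (nearest 5.854), 2684 at 6.467 at T4 (nearest 5.614) and 2718 at 5.934 at T5 (nearest 5.501). These 3 mice later had a leukemia library. The validation Ctrl mouse 2705 was at 5.328 at T1 (nearest 5.647), and its T0 library did not match its labelled sex by Xist. The part of these doubts in the values was not tested.

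The change to the last CM library and the change to Ctrl T10 differed for 34 members by limma on the differences per mouse, against 33.7% of all genes called higher. The count rests on the control month, as given above, and few or no members were higher against Ctrl T5 or T7. The largest were those of Nhp2 (2.98, higher in CM), Rrp9 (2.94), Mybbp1a (2.77) and Gnl3 (2.70).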

How the results depend on the processing

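Over all alternatives, 770 counts of called members stayed within 1.5 times of the reported count and 34 did not. A count with no called member in both the reported and the alternative fit was scored as staying. Most monthly comparisons of arms called no member, so this tally does not measure how firm the calls were. Differences of named members kept direction and side of the threshold in 1323 cases, weakened in 77, strengthened in 22 and reversed in 18. For the medians, 398 stayed within 1 SD over mice while 4 moved. That limit is wide for fits that leave out 1 mouse, which can hardly move a median so far. The planned edgeR quasi-likelihood test was not run, because the deposited unit is log2. The causes were not tested.

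With TMM, 23 members were higher in the last training CM libraries, 2 at training T2 and 1 was lower at validation T1, and at Ctrl T1 in the validation cohort 3 were lower. Voom gave 24, 2, 1 and 4 for these, and 21 lower at Ctrl T10. Shares of all genes called by voom, and by TMM in the monthly comparisons, are not given, so these counts are not results about the members. At validation T1, leaving out globin reads gave 1 lower, differences from the own T0 (the replicate block by difference) 0, and 1 fit over all months with replicate block 0. That blocked fit also gave 21 members higher at training T6 (14 with library group) and 1 higher and 1 lower at validation T3. Without replicate block, the validation Ctrl T1 comparison gave 6 higher and 0 lower. The block changed no other count of called members by over 1.5 times. Against Ctrl T5 the comparison of changes gave 0 higher and 1 lower, and against Ctrl T7 2 higher.

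Leaving out 1 mouse gave 0 to 1 higher at training T2, 1 to 7 lower at validation T1, 0 to 20 higher in the last training CM libraries (20 without 3368) and 0 to 1 lower at validation Ctrl T1. At training T4 the range was -0.0328 (without 3350) to 0.7277 for Npm1 and -0.1146 (without 3350) to 0.5908 for Ncl. In the last training CM libraries it was -0.0379 to 0.5403 for Ncl, -0.6387 to 0.0039 for Nop56 and -0.0874 to 0.4951 for Polr1b. At validation leukemia it was -0.3302 to 0.0403 for Nop56 and -0.0392 to 0.1074 for Heatr1. Nop56 was at 0.1489 with TMM and 0.1926 with voom in the last training CM libraries, and Dkc1 at 0.0013 with TMM at Ctrl T10. At leukemia without mice 2705, 2718 and 2731, Nop56 was at 0.0438 and Heatr1 at -0.0046. Heatr1 was at -0.0392 without mouse 2731 and -0.0167 without globin reads, and its change differed by -0.5368 against Ctrl T5 and -0.0251 against Ctrl T7. Low read counts limit Fbl and Gar1 most.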
